A study of Mus musculus with 8 samples.

Results

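The 10 immediate early genes Fos, Fosb, Jun, Junb, Egr1, Atf3, Ier2, Klf4, Nr4a1 and Myc were examined in RNA-sequencing of mouse hearts. They were taken by name from a table of 25929 genes, and every one of the 10 was found in it. Its 8 libraries fall into 4 groups of 2, named by genotype and surgery (Sham or TAC in WT mice, Sham or TAC in Fat1 mice, written WT-TAC and so on), and a final digit gives the replicate (WT-TAC1). The labels give the tissue as ventricular, whereas the methods describe RNA from the entire heart, so which of these the values represent is not settled. The WT mice are labelled C57BL/6, and the Fat1 mice are littermates that carry the fat-1 gene of Caenorhabditis elegans, an enzyme that turns n-6 into n-3 polyunsaturated fatty acids. The promoter that drives the transgene is not given in the sources used here. Mice of both genotypes had surgery at an age of 3 months. TAC is transverse aortic constriction, a ligature that narrows the aortic arch and loads the left ventricle with pressure, and it was kept for 8 weeks. Sham mice had the chest opened without constriction.

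Immediate early genes are transcribed soon after a cell receives a stimulus, without the need for new protein, because the factors that read their promoters are already in place. Most of their products are transcription factors, and most of their mRNAs and proteins are short lived. Among the best known of the factors that act on them are SRF with its partners, which bind the CArG box, and CREB, which binds the cyclic AMP response element (CRE). In the heart they are known as part of the first transcriptional response to stretch, pressure and adrenergic stimulation.

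The promoters of 4 of these genes are shown because the genes behaved differently in the libraries described below. Fos and Junb varied together, Nr4a1 had the widest difference between the Fat1-TAC replicates on the log2(FPKM + 1) scale, and Jun was among the steadiest of the set. Each window runs from 250 bases before to 50 bases after the gene start in RefSeq (GRCm38), 5′ to 3′ on the strand of the gene. The Fos window is chr12:85473640-85473939 on the plus strand, that of Junb chr8:84978699-84978998 on the minus strand, that of Nr4a1 chr15:101266596-101266895 on the plus strand and that of Jun chr4:95052173-95052472 on the minus strand. Capitals mark TGACG, the core of the CRE, or its reverse complement CGTCA.
Fos: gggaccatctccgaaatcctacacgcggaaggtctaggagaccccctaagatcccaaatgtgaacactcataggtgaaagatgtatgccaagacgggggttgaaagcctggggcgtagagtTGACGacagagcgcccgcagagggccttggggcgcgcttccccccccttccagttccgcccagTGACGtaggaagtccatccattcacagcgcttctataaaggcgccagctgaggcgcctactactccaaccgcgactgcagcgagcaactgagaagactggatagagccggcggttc
Junb: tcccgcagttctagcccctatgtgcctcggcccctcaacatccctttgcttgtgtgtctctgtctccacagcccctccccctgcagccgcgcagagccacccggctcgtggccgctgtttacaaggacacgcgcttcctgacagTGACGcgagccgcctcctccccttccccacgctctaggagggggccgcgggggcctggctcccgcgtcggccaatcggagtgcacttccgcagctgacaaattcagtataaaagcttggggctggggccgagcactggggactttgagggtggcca
Nr4a1: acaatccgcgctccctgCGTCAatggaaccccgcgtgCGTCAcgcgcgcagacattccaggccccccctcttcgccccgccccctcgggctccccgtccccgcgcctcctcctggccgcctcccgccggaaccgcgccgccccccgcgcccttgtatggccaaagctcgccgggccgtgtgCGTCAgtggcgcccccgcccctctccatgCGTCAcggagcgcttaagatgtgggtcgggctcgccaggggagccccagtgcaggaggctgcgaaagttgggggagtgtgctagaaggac
Jun: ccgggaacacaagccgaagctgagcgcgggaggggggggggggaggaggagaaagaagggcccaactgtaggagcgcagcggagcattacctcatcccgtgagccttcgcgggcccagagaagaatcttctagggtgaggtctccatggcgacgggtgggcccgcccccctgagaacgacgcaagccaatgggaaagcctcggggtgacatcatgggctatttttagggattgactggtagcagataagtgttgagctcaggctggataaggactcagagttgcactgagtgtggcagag

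RefSeq windows were found for 7 of the 10 genes, the 4 above and Atf3, Fosb and Klf4. The core TGACG, searched on both strands, occurred in 6 of these 7 windows, and 20.8% of all 32851 windows of this length hold it. The window without it was that of Jun. Fos held 2 copies, starting 129 and 66 bases before the gene start, and Nr4a1 held 4. The full palindrome TGACGTCA, which contains the core, was in 0 of the 7 windows and in 1.79% of all. The AP-1 site TGANTCA was in 0 of 7 (7.81% of all), and the CArG box in 0 of 7 (1.63% of all). The EGR site GCGNGGGCG was in the windows of Fosb, Klf4 and Nr4a1 (5.55% of all), and the TATA box TATAAA in those of Fos and Junb (13.6% of all). These matches describe letters within 300 bases and not binding. Sites farther from the gene start, variants of these letters and the promoters of Egr1, Ier2 and Myc were not covered, so a count of 0 does not mean that a gene lacks such a site.

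Levels are given as FPKM, fragments scaled to transcript length and to the mapped fragments of the library, so they can be compared between genes per length. Averaged over the 8 libraries, Klf4 had the highest level at 32.5 FPKM, followed by Junb at 24.8, Jun at 20.3, Nr4a1 at 19.0 and Ier2 at 11.4. Egr1 followed at 8.52 FPKM, Fos at 7.20, Atf3 at 5.68, Myc at 3.79 and Fosb at 0.462. Neighbours in this order overlapped in their ranges over libraries, except that the highest value of Fosb lay below the lowest of Myc.

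All 10 genes are protein coding in GENCODE M21 (GRCm38). On the plus strand lie Fos (chr12:85473890-85477273), Egr1 (chr18:34859823-34864984), Nr4a1 (chr15:101254269-101274795) and Myc (chr15:61985391-61990374). On the minus strand lie Fosb (chr7:19302696-19310051), Jun (chr4:95049034-95052222), Junb (chr8:84974484-84978718), Ier2 (chr8:84661331-84662852), Atf3 (chr1:191170296-191218039) and Klf4 (chr4:55527143-55532466).

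The libraries held between 14163994 and 21218331 mapped fragments. WT-TAC1 stood apart from the other 7 libraries. All 7 thymocyte markers found (Rag1, Dntt and Lck among them) were above 1 FPKM in it, with a sum of 1420 FPKM, whereas the sum was between 0.296 and 1.40 FPKM in every other library. Its cardiomyocyte markers summed to 32354 FPKM against 58899 to 76197 FPKM elsewhere. Markers of airway and lung epithelium summed to 1741 FPKM in WT-TAC1 and to 3912 FPKM in WT-TAC2, to 82.5 FPKM in Fat1-Sham1 and to at most 6.99 FPKM in the other 5 libraries. Markers of B and plasma cells summed to 90.1 and 44.8 FPKM in the WT-TAC libraries, to 37.2 FPKM in Fat1-TAC2 and to at most 4.78 FPKM in the rest. Adipocyte markers summed to 954 FPKM in WT-TAC1 and 1287 FPKM in WT-TAC2, against 257 to 573 FPKM elsewhere. Macrophage markers summed to 641 and 492 FPKM in these libraries, against 301 to 426 FPKM elsewhere. Of all genes tested, 58.1% had their highest value in WT-TAC1. The part of these markers in the values of the immediate early genes was not tested. In bulk tissue, fewer cells of a type and less RNA per cell cannot be told apart.

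Fos and Fosb encode the FOS partners of the dimeric factor AP-1. In the WT-Sham libraries Fos was at 3.30 and 8.16 FPKM, and in the WT-TAC libraries at 21.5 and 9.33 FPKM. In Fat1-Sham it was at 6.18 and 0.843 FPKM, and in Fat1-TAC at 7.60 and 0.707 FPKM. Both WT-TAC values were thus above every other Fos value, while each fat-1 group held 1 library within the WT-Sham range and 1 below 1 FPKM. The lowest value rested on 14 fragments and the highest on 465, and they differed 30.4-fold.

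Fosb was the least expressed of the set. It was at 0.0648 and 0.562 FPKM in the shams and at 1.11 and 0.919 FPKM after TAC in WT mice, and at 0.361 and 0.0782 FPKM in the shams and 0.311 and 0.286 FPKM after TAC in Fat1 mice. Its 2 highest values were those of WT-TAC, as for Fos. The value in WT-Sham1 came from 3 fragments, which is the floor used here, and WT-TAC1 was the only library above 1 FPKM.

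Jun and Junb encode the JUN partners of AP-1. Jun was at 18.0 and 16.5 FPKM in the shams and at 19.5 and 25.4 FPKM after TAC in WT mice, and at 19.9 and 14.3 FPKM in the shams and 25.8 and 22.8 FPKM after TAC in Fat1 mice. Its highest value was 1.80 times its lowest, the smallest ratio of the 10 genes. Within each genotype, both TAC libraries of Jun lay above both sham libraries. The same held for 52.5% of all genes tested in WT hearts and for 26.8% in fat-1 hearts.

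Junb was at 19.3 and 20.4 FPKM in WT-Sham and at 57.3 and 28.9 FPKM in WT-TAC. In Fat1-Sham it was at 22.6 and 13.3 FPKM and in Fat1-TAC at 24.2 and 12.7 FPKM. The 2 WT-TAC libraries were the highest, and the fat-1 groups covered nearly the same range in sham and TAC. The libraries came from a kit that does not mark the strand, and the exons of Junb overlap those of Prdx2, which lies on the opposite strand and was at 164 to 202 FPKM. Fragments from the overlap cannot be told apart. The same holds for Jun and its antisense gene Junos, which was at 0.758 to 2.09 FPKM.

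Atf3 encodes a stress-induced factor of the ATF/CREB family that pairs with JUN proteins. It was at 6.06 and 3.21 FPKM in the shams and at 5.80 and 6.75 FPKM after TAC in WT mice, and at 4.59 and 7.66 FPKM in the shams and 7.91 and 3.49 FPKM after TAC in Fat1 mice. All 4 groups overlapped, and the lowest and the highest value lay in a WT-Sham and a Fat1-TAC library.

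Egr1 and Klf4 encode zinc finger factors. Egr1 is a standard readout of growth factor signalling to SRF, and it was at 4.90 and 9.99 FPKM in the shams and at 24.1 and 7.34 FPKM after TAC in WT mice, and at 9.38 and 2.05 FPKM in the shams and 7.57 and 2.83 FPKM after TAC in Fat1 mice. Its high WT-TAC value was that of WT-TAC1 alone, and WT-TAC2 lay between the WT-Sham libraries. Klf4, a Krüppel-like factor with roles in endothelium and in cardiac hypertrophy, was at 32.1 and 24.2 FPKM in the shams and at 28.6 and 44.1 FPKM after TAC in WT mice, and at 33.9 and 34.9 FPKM in the shams and 32.6 and 29.5 FPKM after TAC in Fat1 mice. For Klf4 the higher WT-TAC library was WT-TAC2, and the fat-1 libraries lay close to each other.

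Nr4a1 encodes an orphan nuclear receptor. It was at 8.85 and 12.9 FPKM in the shams and at 30.2 and 16.5 FPKM after TAC in WT mice, and at 18.4 and 23.5 FPKM in the shams and 35.8 and 5.84 FPKM after TAC in Fat1 mice. The 2 Fat1-TAC libraries were the highest and the lowest of all 8 for this gene.

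Ier2, a short nuclear protein of the early response, was at 8.21 and 11.5 FPKM in the shams and at 23.1 and 10.5 FPKM after TAC in WT mice, and at 10.9 and 6.92 FPKM in the shams and 12.4 and 7.78 FPKM after TAC in Fat1 mice. Without WT-TAC1, its values covered a 1.80-fold range. Myc, the growth regulator that pairs with MAX, was at 2.54 and 1.28 FPKM in the shams and at 18.2 and 2.59 FPKM after TAC in WT mice, and at 1.39 and 1.42 FPKM in the shams and 1.26 and 1.69 FPKM after TAC in Fat1 mice. A single library, WT-TAC1, was far above the rest for Myc, and the range over the other 7 libraries was 2.05-fold against 14.4-fold over all 8. WT-TAC1 is the library with thymocyte markers, and it held the highest value of 6 of the 10 genes (Fos, Fosb, Junb, Egr1, Ier2 and Myc). The same held for 58.1% of all genes tested and for 25 of 52 other immediate early genes.

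**Figure D1:**
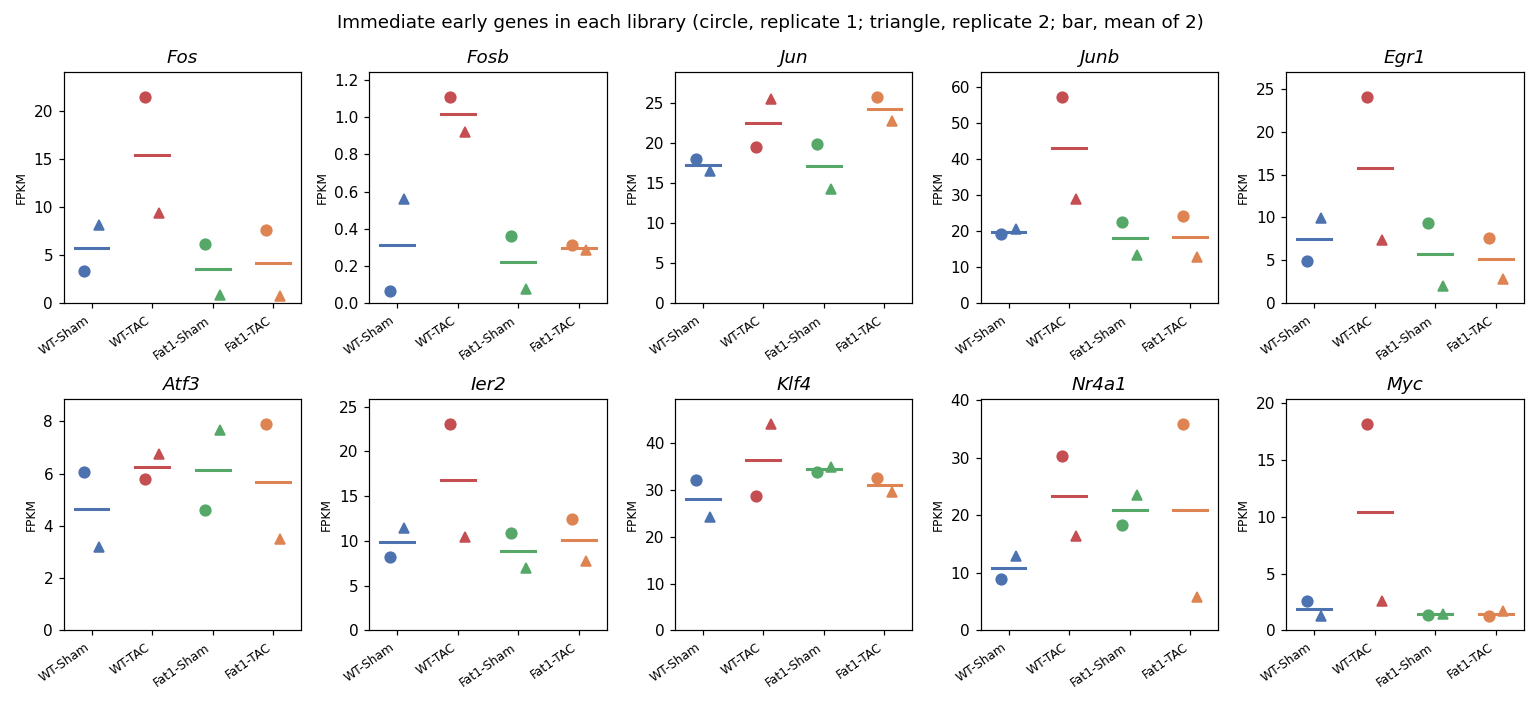
FPKM of each of the 10 immediate early genes (y axes, linear from 0) in the 4 groups, with a circle for replicate 1, a triangle for replicate 2 and a bar at the mean of the 2. WT-TAC1 is the highest library in 6 panels, as it is for 58.1% of all genes tested. Fos and Nr4a1 in Fat1-TAC show replicates far apart.

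In the median, the replicates of a group differed more for these genes than over all genes tested. The median absolute difference of log2(FPKM + 1) between replicates, over the 9 genes that passed the filter on low values, was 0.50 for WT-Sham and 0.96 for WT-TAC, then 0.59 for Fat1-Sham and 0.87 for Fat1-TAC. Over all 14442 genes tested it was 0.21, 0.50, 0.13 and 0.14 for these groups. The immediate early genes thus had a larger median in all 4 groups. Marker lists differed between the fat-1 replicates too. In Fat1-TAC, B and plasma cell markers summed to 2.49 and 37.2 FPKM and adipocyte markers to 257 and 524 FPKM, and in Fat1-Sham airway and lung epithelium markers summed to 82.5 and 3.41 FPKM and adipocyte markers to 573 and 289 FPKM, whereas thymocyte markers were near 0 in all 4 libraries. The part of these lists in the replicate differences was not tested.

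In Fat1-TAC the FPKM of Nr4a1 differed 6.14-fold between the replicates, that of Fos 10.8-fold, that of Egr1 2.68-fold and that of Atf3 2.27-fold. These 4 of 9 genes were over 2-fold apart, against 6.12% of all genes tested. Of the 9, 8 were higher in replicate 1, with Myc as the exception, and of 48 other immediate early genes tested 29 were. The share of all genes tested that were higher in replicate 1 was not counted. In Fat1-Sham, Fos (7.33-fold) and Egr1 (4.57-fold) were over 2-fold apart, against 6.43% of all genes tested. In WT-Sham the same pair was, at 2.47-fold and 2.04-fold, against 8.69% of all genes tested. In WT-TAC, Fos, Egr1, Ier2 and Myc were over 2-fold apart, each higher in WT-TAC1, against 24.0% of all genes tested. Klf4 differed by at most 1.54-fold and Jun by at most 1.39-fold between replicates. The fragments behind the widest gaps in Fat1-TAC were 155 and 14 for Fos and 1657 and 262 for Nr4a1.

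**Figure D2:**
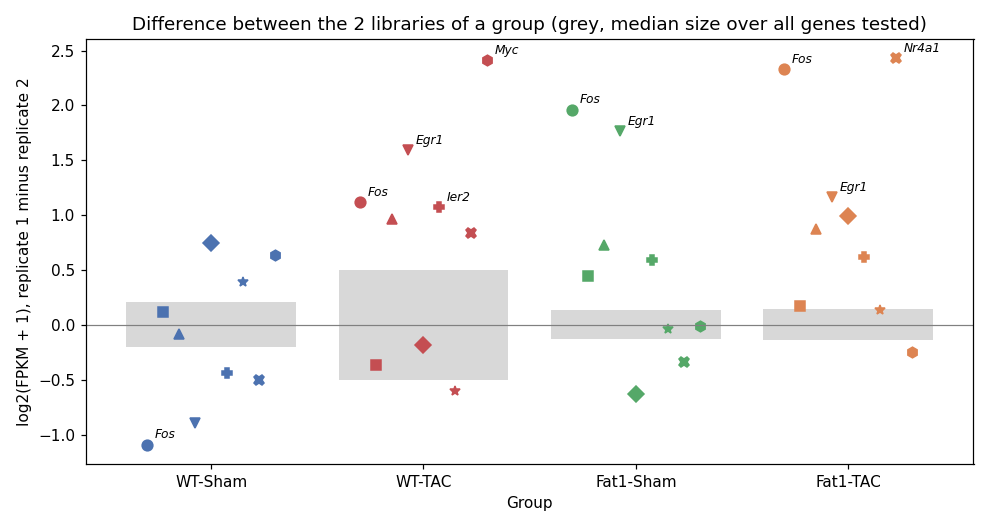
Difference of log2(FPKM + 1) between replicate 1 and replicate 2 (y axis) in each group (x axis), with 1 symbol for each of the 9 tested genes, names beside those over 1 or under -1, and a grey band spanning the median absolute difference over all genes tested on either side of 0. In the fat-1 groups the band is 0.13 and 0.14 high on each side, and Fos differs by 1.96 and 2.33.

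Fos, Egr1, Junb and Ier2 were high and low in the same libraries. This group of 4 was chosen after its values were seen, so the correlations are a description only. Over the 8 libraries, Pearson's r of log2(FPKM + 1) for the 6 pairs among them was between 0.90 and 0.96. Without WT-TAC1 it was between 0.82 and 0.95, and for deviations from the group means between 0.87 and 0.96. The 4 genes lie on different chromosomes except for Junb and Ier2, and the points share depth and composition of each library.

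The other genes followed this group less or not at all. Fosb had r between 0.79 and 0.82 with the 4 genes, and between 0.61 and 0.68 without WT-TAC1. Myc had r between 0.59 and 0.82, which became -0.27 to 0.25 without WT-TAC1. Nr4a1 had r between 0.46 and 0.57, and between 0.26 and 0.46 without WT-TAC1. Atf3 had r between -0.10 and 0.21, Klf4 between -0.27 and 0.01 and Jun between 0.20 and 0.29. Without WT-TAC1 these ranges were -0.21 to 0.25, -0.11 to 0.39 and 0.33 to 0.53. For deviations from the group means, r was 0.45 to 0.72 for Fosb, 0.16 to 0.60 for Myc and 0.54 to 0.72 for Nr4a1. It was -0.24 to 0.08 for Atf3, -0.72 to -0.34 for Klf4 and -0.08 to 0.36 for Jun. In Fat1-Sham the direction was split, since Fos, Egr1, Junb, Ier2, Fosb and Jun were higher in replicate 1 and Atf3 and Nr4a1 in replicate 2. Klf4 (33.9 and 34.9 FPKM) and Myc (1.39 and 1.42 FPKM) were nearly equal in the replicates.

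**Figure D3:**
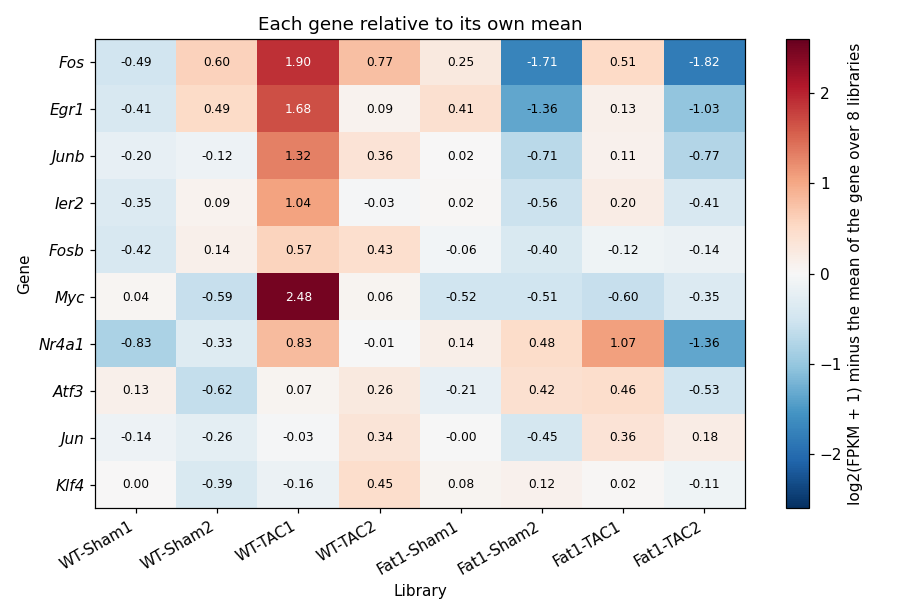
Each gene (rows) in each library (columns) as log2(FPKM + 1) minus its own mean over the 8 libraries, in red above and blue below that mean. Fos, Egr1, Junb and Ier2 share the high value in WT-TAC1 and the low values in Fat1-Sham2 and Fat1-TAC2, Myc is high at 2.48 in WT-TAC1, and Jun stays between -0.45 and 0.36 and Klf4 between -0.39 and 0.45.

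Among genes outside the set with a mean of at least 5 FPKM, those most like the mean level of the tested immediate early genes over the 8 libraries were Fam69a, with an r of 0.96, Vta1 (0.95), Osgin2 (0.95), Tmem222 (0.94) and Eif2a (0.94). Without WT-TAC1 these values fell to between 0.85 and 0.91, and the ranking changed. The 5 most similar genes were then Cab39 (0.96), Acer2 (0.96), Ginm1 (0.94), Naalad2 (0.92) and Fam69a (0.91). Over all 8 libraries, Ginm1 had an r of 0.02 and Naalad2 of 0.17. The comparison covered 9450 genes and is a description over 8 points.

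The effect of TAC in WT hearts was examined first. A gene was called where the limma test gave an adjusted p (Benjamini-Hochberg over all genes tested) under 0.1 and a fold change over 1.5 in either direction, as fold change of FPKM + 1. None of the 9 tested immediate early genes was called in WT-TAC vs. WT-Sham, and 0.935% of all genes tested were. The lowest adjusted p was 0.181. The test by limma-voom on fragments recovered from the FPKM values also called 0 of the 9, here and in every other comparison, but of all 14442 genes it called only 1 in Fat1-TAC vs. WT-TAC and 0 in the others, so nothing is read from this for the 9 genes. Without adjustment (p under 0.05 and the same fold), Junb was the 1 of 9 that passed, against 23.8% of all genes.

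All 9 log2 fold changes were above 0 in WT-TAC, with a median of 0.85, but Jun and Klf4 turned negative under 3 other scalings of the libraries and Atf3 under quantile normalization, and the median was then between 0.33 and 0.41. The median over all genes tested was 0.39 in the main analysis and between -0.073 and -0.012 under these scalings. Values are also given relative to the 0.39. Myc had a log2 fold change of 1.55 ± 0.69 (SE), which is 1.16 above the median of all genes, and Fos 1.28 ± 0.92, which is 0.89 above it. Junb was at 1.002 ± 0.42 and Nr4a1 at 0.99 ± 0.71, or 0.61 and 0.60 above that median. Jun at 0.35 ± 0.21 and Klf4 at 0.34 ± 0.23 lay slightly below the median of all genes. The 95% interval of Fos reached from -0.90 to 3.46 and that of Junb from 0.02 to 1.99.

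The libraries of WT-TAC lay above those of WT-Sham without overlap for 5 of the 9 genes (Fos, Jun, Junb, Myc and Nr4a1), and 52.5% of all genes tested did the same. The share among the immediate early genes was thus near that of all genes. With 2 libraries against 2, an exact permutation test cannot give a two-sided p below 0.33. Without WT-TAC1 the median log2 fold change of the 9 genes was 0.52, against 0.20 over all genes tested, and the value of Myc was 0.34, with 0 of the 9 and 0.144% of all genes called. Without WT-TAC2 it was 1.41 and Junb, Ier2 and Myc were called, as were 50.5% of all genes tested.

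In fat-1 hearts, TAC was compared with sham in the same way. None of the 9 genes was called in Fat1-TAC vs. Fat1-Sham, against 0.00692% of all genes tested, and 0 passed the unadjusted p of 0.05 with the fold of 1.5, against 1.86% of all. The median log2 fold change was 0.03, equal after rounding to that of all genes. Jun had the largest value at 0.50 ± 0.21 (SE), a 95% interval of -0.01 to 1.001 and an adjusted p of 1, and its TAC libraries lay above the sham libraries, as did those of 26.8% of all genes. Klf4, at -0.14 ± 0.23, was the single gene with TAC libraries below sham (21.5% of all genes). For Fos, at 0.07 ± 0.92, the interval reached from -2.10 to 2.25, and for Nr4a1, at -0.46 ± 0.71, from -2.14 to 1.22, so that large changes in either direction were not detectable with these replicates. Without Fat1-TAC1 the median of the 9 genes was -0.42 and without Fat1-TAC2 it was 0.47.

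The TAC hearts of the 2 genotypes were then compared, with the same WT-TAC libraries as in the first comparison. None of the 9 genes was called in Fat1-TAC vs. WT-TAC, against 1.43% of all genes tested, and the lowest adjusted p was 0.163. Junb, with a log2 fold change of -1.17 ± 0.42 (SE), and Myc, at -1.75 ± 0.69, passed the unadjusted p of 0.05 with the fold, or 2 of 9 genes against 25.2% of all. Fos was at -1.99 ± 0.92 and Egr1 at -1.34 ± 0.76. The Fat1-TAC libraries of Fos, Junb and Myc lay below both WT-TAC libraries, which 57.1% of all genes did. The median log2 fold change was -0.61 against -0.40 for all genes tested, and Jun was the only one of the 9 above 0 (0.11 ± 0.21), joined by Atf3 and Klf4 under the 3 other scalings. The median was -0.17 with median of ratios scaling and -0.12 with quantile normalization. That of all genes tested was then -0.0086 and 0.061.

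Both WT-TAC libraries carried the markers given above, and their part in this difference was not tested. Without WT-TAC1 the log2 fold change of Myc was -0.54, that of Egr1 -0.54 and that of Ier2 -0.08, with a median over all genes of -0.19. Without WT-TAC2, 5 of the 9 genes were called lower in Fat1-TAC (Fos, Junb, Egr1, Ier2 and Myc), as 53.8% of all genes were called in either direction.

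In sham hearts, the genotypes were compared without constriction. None of the 9 genes was called in Fat1-Sham vs. WT-Sham, nor was any gene tested (0%), and 0 passed the unadjusted p of 0.05 with the fold, against 0.893% of all genes. Nr4a1 had the largest difference, a log2 fold change of 0.89 ± 0.71 (SE) with an adjusted p of 1. Its Fat1-Sham libraries, and those of Klf4 (0.29 ± 0.23), lay above both WT-Sham libraries, as did those of 15.5% of all genes. Fos was at -0.79 ± 0.92 and Egr1 at -0.52 ± 0.76, with the 2 groups overlapping for both.

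The difference between the 2 TAC effects was tested directly as an interaction. No immediate early gene was called (lowest adjusted p 0.495), against 0.0692% of all genes tested, and 0 passed the unadjusted p of 0.05 with the fold, against 6.99% of all. Of the 9 genes, 8 had a TAC effect that was lower in fat-1 than in WT hearts, with a median difference of -0.82 on the log2 scale against -0.37 over all genes. The values for Myc were -1.51 ± 0.98 (SE), for Nr4a1 -1.45 ± 1.01 and for Fos -1.21 ± 1.31. A difference of the TAC effects was thus not shown for any of the 9 genes. Without WT-TAC2, Junb and Myc were called, as were 45.8% of all genes.

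Fosb did not pass the filter, which asked for 1 FPKM in 2 libraries. When every gene was kept, its log2 fold change was 0.64 ± 0.21 (SE, adjusted p 0.222) in WT-TAC vs. WT-Sham and -0.63 ± 0.21 (adjusted p 0.203) in Fat1-TAC vs. WT-TAC, and it was not called in any comparison.

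**Figure D4:**
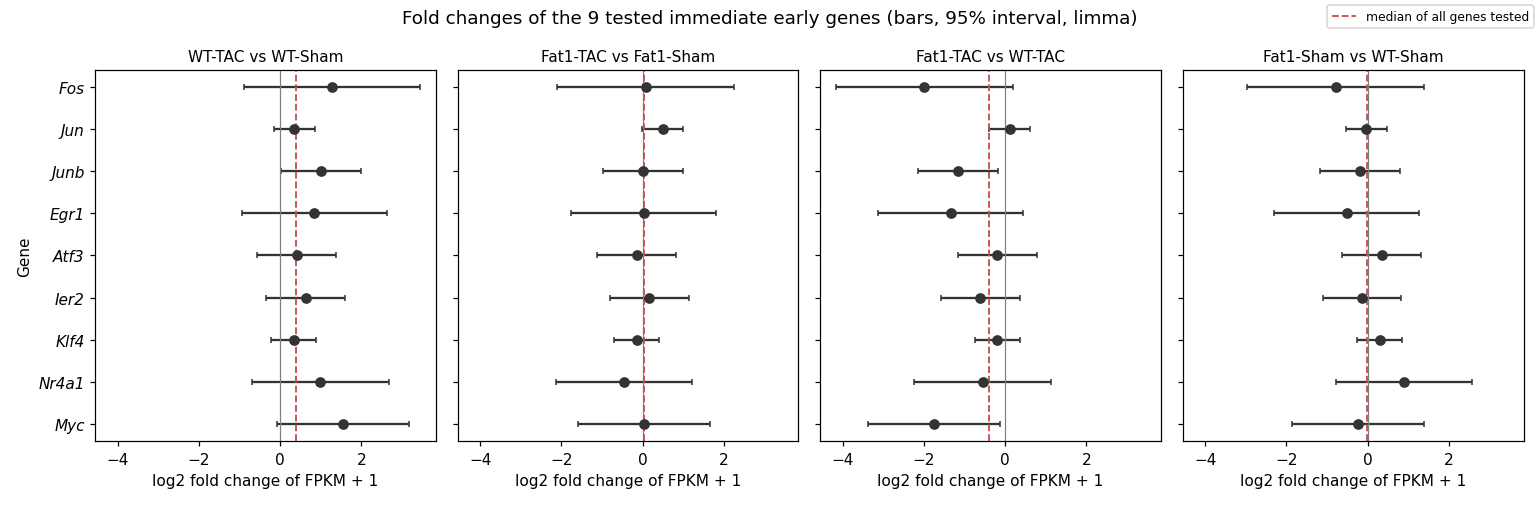
Log2 fold change of FPKM + 1 (x axes) for the 9 tested genes (y axis) in the 4 pairwise comparisons, with points for the limma estimate, bars for its 95% interval and a dashed red line at the median of all genes tested. The dashed line lies at 0.39 for WT-TAC vs. WT-Sham and at -0.40 for Fat1-TAC vs. WT-TAC, and the intervals include 0 except for Junb in these 2 comparisons and Myc in the latter.

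A wider list of other immediate early genes, 48 of which were tested, was read beside the set. In WT-TAC vs. WT-Sham 1 of the 48 was called, Zfp36l2, which encodes a protein that promotes decay of AU-rich mRNAs. It was at 14.4 and 17.2 FPKM in WT-Sham, at 41.3 and 30.6 FPKM in WT-TAC and at 12.6 to 15.3 FPKM in the fat-1 libraries. Its log2 fold change was 1.13 ± 0.20 (SE), with an adjusted p of 0.0861. In Fat1-TAC vs. WT-TAC, 2 of 48 were called, both lower in Fat1-TAC. They were Zfp36l2 (log2 fold change -1.19, adjusted p 0.0716) and Ccn2, a matricellular growth factor known from fibrosis (-1.67 ± 0.22, adjusted p 0.0384). Ccn2 was at 50.9 and 52.9 FPKM in WT-TAC and at 16.5 and 14.9 FPKM in Fat1-TAC, with the shams between 21.3 and 39.7 FPKM. The call of Zfp36l2 was lost in 14 of 16 alternative analyses in each comparison, among them the omission of any library other than WT-TAC2, with adjusted p between 0.000644 and 0.526 in the first and between 0.000564 and 0.469 in the second. That of Ccn2 was lost in 9 of 16, namely under the 3 other scalings, in a fit of the 2 groups alone and without WT-Sham1, WT-Sham2, WT-TAC1, Fat1-TAC1 or Fat1-TAC2, with adjusted p between 0.00152 and 0.285.

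Of the 5 largest fold changes of that list in WT-TAC vs. WT-Sham, those of Btg2, Btg1 and Csrnp1 belonged to genes high in WT-TAC1. Btg2, an antiproliferative gene, was at 99.5 FPKM in WT-TAC1 and at 18.8 FPKM in WT-TAC2, with 12.5 and 15.9 FPKM in WT-Sham, and its log2 fold change was 1.56 ± 0.70 (SE). Btg1, of the same family, was at 70.0 and 14.1 FPKM in WT-TAC and had a value of 1.52 ± 0.63. Csrnp1 was at 30.5 and 6.84 FPKM and had 1.21 ± 0.59. The circadian gene Per1 differed from these, at 21.2 and 29.0 FPKM in WT-TAC against 8.48 and 13.0 FPKM in WT-Sham. In total, 10 of the 48 passed the unadjusted p with the fold upward and 0 downward, a share near the 23.8% of all genes that passed in either direction, and the median log2 fold change of the list was 0.49, close to the 0.39 of all genes.

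In Fat1-TAC vs. Fat1-Sham, 0 of the 48 were called, and 5 passed the unadjusted p with the fold, 2 upward and 3 downward, where 1.86% of all genes passed in either direction. Klf2, a flow-responsive factor of endothelium, had the largest log2 fold change at 1.54 ± 0.27 (SE), with 87.3 and 72.2 FPKM in Fat1-TAC against 28.3 and 25.1 FPKM in Fat1-Sham and an adjusted p of 1. Per1 followed at 1.34 ± 0.25, from 9.68 and 10.8 to 25.5 and 29.6 FPKM. Nr4a3, which is of the Nr4a1 family, was at 3.75 and 4.98 FPKM in Fat1-Sham and at 0.990 and 1.21 FPKM in Fat1-TAC, and its log2 fold change was -1.35 ± 0.51. Nfil3 was at -1.30 ± 0.26 and Btg2 at 0.88 ± 0.70. Of the 48, 6 differed over 2-fold between the Fat1-TAC replicates, against 6.12% of all genes tested, and the gap seen for Fos and Nr4a1 was exceeded by none of them.

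In Fat1-TAC vs. WT-TAC, 13 of the 48 passed the unadjusted p with the fold downward and 1 upward, where 25.2% of all genes passed in either direction. Beside Ccn2 and Zfp36l2, the largest values belonged to Btg1 (-1.67 ± 0.63, SE), to Socs3, an inhibitor of cytokine signalling (-1.36 ± 0.42), and to Nr4a3 (-1.20 ± 0.51). In Fat1-Sham vs. WT-Sham and in the interaction 0 of 48 were called, while 1 (Nfil3, higher in Fat1-Sham) and 8 (7 lower and 1 higher) passed the unadjusted p with the fold, against 0.893% and 6.99% of all genes. The largest value of the list was that of Ccl2 in Fat1-Sham vs. WT-Sham (-0.77 ± 0.52) and that of Nr4a3 in the interaction (-1.86 ± 0.72).

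The factors that act on these genes were read from a list of 18 upstream regulators, among them Srf, Creb1 and Elk1. None was called in any comparison. All 18 had a log2 fold change above 0 in WT-TAC vs. WT-Sham, with a median of 0.34 that lay below the 0.39 of all genes tested, and 4 passed the unadjusted p with the fold (Elk4, Mrtfa, Creb1 and Rps6ka1), against 23.8% of all genes. All 4 were higher in WT-TAC1 than in WT-TAC2, Elk4 at 75.2 and 25.0 FPKM, Mrtfa at 22.5 and 6.48 FPKM, Creb1 at 55.3 and 16.0 FPKM and Rps6ka1 at 17.7 and 5.96 FPKM. Downward, 5 of the 18 passed in Fat1-TAC vs. WT-TAC, against 25.2% of all genes, and in the other 3 comparisons 0 did. Of 13 partners and inhibitors, such as Jund, the EGR inhibitor Nab2 and the MYC antagonists Mxd1, Mxd4 and Mnt, none was called in any comparison, and 6 passed the unadjusted p with the fold in WT-TAC vs. WT-Sham, all upward, against 23.8% of all genes. The same 2 thresholds were passed downward by 6 in Fat1-TAC vs. WT-TAC and by 3 in the interaction, against 25.2% and 6.99% of all genes. In WT-TAC vs. WT-Sham the log2 fold change of Nab2 was 1.17 ± 0.32 (SE) and that of Mnt 0.90 ± 0.22.

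Of 10 MYC target genes none was called in any comparison, and 3 passed the unadjusted p with the fold in WT-TAC vs. WT-Sham, against 23.8% of all genes, and the median log2 fold change of the 10 there was 0.73 against 0.39 over all genes. The summed level of these 10 genes was 1525 FPKM in WT-TAC1 and 1126 FPKM in WT-TAC2, with 1073 and 1096 FPKM in WT-Sham. Ldha was the largest part of these sums, at 563 and 639 FPKM in WT-TAC and at 661 and 678 FPKM in WT-Sham. Of the 10 genes, 9 had a log2 fold change above 0 in this comparison. Of 8 genes of the integrated stress response, which Atf3 belongs to in many cells, 1 was called, Asns, which was lower in Fat1-TAC than in WT-TAC (log2 fold change -1.39, adjusted p 0.0784). That call was lost in 13 of 15 alternative analyses, among them the omission of any library other than WT-TAC2, with adjusted p between 0.00432 and 0.469.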

How the data were processed

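RNA of 8 mice, 2 in each group, was sequenced, from ventricular tissue per the labels and from the entire heart per the methods. The authors deposited FPKM values per gene. The methods describe a NEBNext Ultra RNA kit, which does not mark the strand, and the submitters' processing notes name HISAT2 and the builds mm10 and GRCm38. Software versions and the annotation are not given in the sources used here. Of 25929 genes, 25852 carry a symbol, and 4 blank lines were removed. Coordinates are those of GENCODE M21 (GRCm38) and promoters those of RefSeq.

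FPKM values were analysed as log2(FPKM + 1) with limma 3.58.1 (R 4.3.3, empirical Bayes with trend). Genes at 1 FPKM or more in 2 libraries were kept, all 8 libraries were fitted with 4 group means, and p-values were adjusted by Benjamini-Hochberg over the 14442 genes. A call required an adjusted p under 0.1 and a 1.5-fold change. Fold changes are on the log2(FPKM + 1) scale, which understates those of low genes. Whole fragments were recovered from the FPKM values for the floor of 3 fragments and for 1 alternative. Intervals and floors cover counting error or the fitted spread only. The steps were tested on simulated data.

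The members and gene lists were chosen with earlier results of these data known. The text names all members, called genes of the other lists, per comparison at most 5 genes of the wider list, from those with the largest fold changes, and the 5 most similar genes, and any further gene was picked after its values were seen. The labels call the samples independent, and p-values measure the spread between them. The alternatives were another pseudocount, other filters, 3 other scalings or models, a fit of 2 groups at a time, a block for the replicate number, and the omission of each library.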

Additional observations from a re-analysis of the deposited data

How the results depend on the processing

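Across 16 alternative analyses the number of called immediate early genes stayed at 0, except without WT-TAC2, where WT-TAC is represented by WT-TAC1 alone and the lone library is taken to vary like the other groups. When each library was left out in turn, the count of called genes thus ran from 0 to 3 in WT-TAC vs. WT-Sham, from 0 to 5 in Fat1-TAC vs. WT-TAC and from 0 to 2 in the interaction. The adjusted p then reached 4.95e-04 for Myc in WT-TAC vs. WT-Sham and 3.96e-04 in Fat1-TAC vs. WT-TAC. The median log2 fold change of the 9 genes ran from 0.52 to 1.41 in WT-TAC vs. WT-Sham, from -0.42 to 0.47 in Fat1-TAC vs. Fat1-Sham, from -1.60 to -0.30 in Fat1-TAC vs. WT-TAC and from -1.47 to -0.23 in the interaction.

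Scaling moved the medians. In WT-TAC vs. WT-Sham the median was 0.41 with median of ratios, 0.33 with quantile normalization and 0.40 with limma-voom on recovered fragments. In Fat1-TAC vs. WT-TAC it was -0.17 with median of ratios and -0.12 with quantile normalization, and in the interaction -0.38 with quantile normalization and -0.37 with limma-voom. The median over all genes tested moved as well. In WT-TAC vs. WT-Sham it went from 0.39 to -0.012 with median of ratios, -0.073 with quantile normalization and -0.023 with limma-voom. In Fat1-TAC vs. WT-TAC it went from -0.40 to -0.0086 with median of ratios and 0.061 with quantile normalization. In the interaction it went from -0.37 to 0.053 with quantile normalization and 0.0091 with limma-voom. The cause was not tested. Some small fold changes turned their sign with these scalings, none of them called. In WT-TAC vs. WT-Sham these were Jun at -0.097, -0.11 and -0.088 and Klf4 at -0.12, -0.070 and -0.11 (median of ratios, quantile and voom, in this order), and Atf3 at -0.13 with quantile normalization. In Fat1-TAC vs. WT-TAC they were Atf3 at 0.20, 0.33 and 0.26 and Klf4 at 0.26, 0.23 and 0.26. In Fat1-TAC vs. Fat1-Sham they were Junb at -0.025 and Egr1 at -0.0011 with median of ratios, Fos at -0.047, Egr1 at -0.051 and Myc at -0.054 with quantile normalization, and Fos at -0.024 and Junb at -0.029 with voom. In Fat1-Sham vs. WT-Sham Jun was at 0.0082 with median of ratios and at 0.0021 with voom.

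Leaving out 1 library turned the sign of further fold changes, none of them called. In Fat1-TAC vs. Fat1-Sham the log2 fold change ran for Fos from -1.09 to 1.24, Junb from -0.42 to 0.46, Egr1 from -0.86 to 0.91, Atf3 from -0.63 to 0.36, Ier2 from -0.14 to 0.47, Nr4a1 from -1.67 to 0.76 and Myc from -0.088 to 0.16. In Fat1-TAC vs. WT-TAC it ran for Jun from -0.067 to 0.30, Klf4 from -0.49 to 0.11, Atf3 from -0.69 to 0.30 and Nr4a1 from -1.77 to 0.66. In Fat1-Sham vs. WT-Sham it ran for Jun from -0.25 to 0.20, Myc from -0.56 to 0.078, Atf3 from -0.020 to 0.73, Ier2 from -0.44 to 0.15, Fos from -1.77 to 0.19, Junb from -0.54 to 0.18 and Egr1 from -1.40 to 0.37. In the interaction it ran for Jun from -0.082 to 0.37, Ier2 from -1.005 to 0.065 and Egr1 from -1.70 to 0.062. Of 706 repeated values for single members, 645 kept their sign and their side of the threshold, 51 changed sign and 10 became called. These counts do not measure stability, because several alternatives cannot move a fold change between 2 groups. They are the other filters, the fit of 2 groups, the replicate block and the omission of a library outside the comparison. Under these only the p-value and the call could change.

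The correlation of same-numbered deviations from the group means was between -0.14 and 0.02 over the pairs of groups. These values cannot decide whether replicate numbers pair the samples, because each group held only 2 libraries. Fos, Egr1, Junb and Ier2 were each higher in replicate 1 in every group except WT-Sham, where replicate 2 was higher. Other members, such as Nr4a1 and Atf3, did not share this pattern. Pairing was not tested for the immediate early genes alone. With the replicate number as a block (replicate block), 0 members were called in each comparison. The median log2 fold change of 0.85 in WT-TAC vs. WT-Sham could not change, since each group holds both replicate numbers.

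Over all genes tested, the count of calls ran from 0 (voom) to 7065 (without WT-TAC2) around 135 in WT-TAC vs. WT-Sham, from 1 to 7523 around 206 in Fat1-TAC vs. WT-TAC, from 0 to 6398 around 10 in the interaction and from 0 to 84 around 1 in Fat1-TAC vs. Fat1-Sham. Analyses of the called genes Zfp36l2, Ccn2 and Asns under these alternatives were added after seeing the data. Depth limits Fosb, which had 3 to 72 fragments a library, and the low values of Fos, which had 14 and 18.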
